A study of Homo sapiens with 132 samples.

Results

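MKN1 cells, an established gastric cancer line from a metastatic site, were compared after 4 h with afatinib and after 4 h without treatment, 3 libraries against 3 of the 132 in the series. The 3 afatinib libraries came from cells given 0.5 µM afatinib alone, and the 3 untreated libraries from cells without an added agent, so that drug and solvent cannot be told apart. Both groups grew in medium with foetal calf serum. The libraries were chosen by their labels for line, time and treatment, and all genes were analysed, with the replicate number as the pair. The further MKN1 libraries used below received cetuximab (1 µg/ml), trastuzumab (5 µg/ml), trastuzumab with afatinib, EGF (5 ng/ml) or EGF with cetuximab, or were harvested at 24 h. Afatinib and untreated libraries of the lines MKN7, NCI-N87 and Hs746T at 4 h served for comparison. Every group held 3 libraries, and where the labels do not say that the replicates were separate cultures, p-values measure only the spread between these samples.

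Afatinib is a small molecule that binds covalently to the kinase domain of the ERBB family receptors EGFR, ERBB2 and ERBB4. On ligand binding these receptors pair and start, among other cascades, the RAS-RAF-MEK-ERK pathway. ERK activity raises the transcription of immediate early factors (EGR, FOS, FOSL1, MYC) and of its own inhibitors (the dual-specificity phosphatases, the Sprouty and SPRED proteins), and of further EGFR ligands. In gastric cancer the family is a drug target because ERBB2 or EGFR is amplified or highly expressed in part of the tumours.

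The 6 libraries held 39005311 to 55291592 counts, so that 3 counts in one library corresponded to 0.0543 to 0.0769 CPM, the count scaled to the library total, and protein-coding genes took 98.48 to 98.75% of the counts. In the sample descriptions the S numbers of the compared libraries run on from replicate 1 to replicate 2 and start anew before replicate 3. Each of the same-numbered pairs of untreated and afatinib libraries deviated together from its group means, and replicates of one group differed by 17.9 to 45.3 times the Poisson expectation. The labelled cell type was checked against its markers. The epithelial keratins KRT8, KRT18 and KRT19 stood at 10900 to 12400, 2850 to 3820 and 3380 to 4330 CPM by library size, and EPCAM at 15.6 to 26.3 CPM. By contrast CDH1 (E-cadherin) reached at most 2.12 and CLDN7 2.41 CPM, and the mesenchymal gene VIM was at 411 to 653 CPM. The 6 mesenchymal markers summed to 1110 to 1960 CPM in untreated and 1010 to 1880 CPM in afatinib libraries. Among them FN1 was at 563 to 1280 and ZEB1 at 28.7 to 43 CPM, while CDH2 (N-cadherin) was at most at 0.654, ZEB2 at 1.83 and TWIST1 at 0.175 CPM. Of these 6, ZEB1 fell (-0.51, adjusted p = 8.19e-06, edgeR). The 4 squamous markers summed to 119 to 251 and 120 to 263 CPM, with KRT5 up to 137 CPM, and the 6 fibroblast markers to 74.4 to 110 and 83.2 to 114 CPM, with LUM up to 96.6 CPM. None of the squamous, fibroblast or 6 epithelial markers passed the test. Of 9 gastric epithelial markers GKN2 was at 0 in all 6 libraries, and the summed list was at 20 to 32.8 CPM in untreated and 24.6 to 37.4 CPM in afatinib libraries. None of the 6 gastric markers that could be tested changed at 4 h. Of the 7 blood and endothelial markers CD68 was at 0 in all 6 libraries, and the summed list was at 6.96 to 15.4 CPM in untreated and 5.39 to 11.1 CPM in afatinib libraries. Of the 4 that could be tested PECAM1 fell (-0.57, adjusted p = 0.00165, edgeR). The part of these falls in the other results was not tested.

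After 4 h of afatinib, 100 genes were higher and 114 were lower by more than 2-fold with an adjusted p below 0.05 (edgeR quasi-likelihood test, Benjamini-Hochberg adjustment, 19815 genes tested). These are called regulated in the following. They were 0.505% and 0.575% of the genes tested, and 212 of the 214 had 1 direction in each of the 3 pairs of equal number. In 195 of them the 3 untreated and the 3 afatinib libraries did not overlap, which held for 19.8% of all genes tested. At an adjusted p below 0.05 with no limit on the fold, 1107 genes rose (5.59%) and 1511 fell (7.63%), and these are called changed. The median log2FC of all genes was 0.01. The direction of the split depended on the scaling. Under scaling by library size alone 170 genes were higher and 98 lower, so that 63.4% in place of 46.7% of the regulated genes were higher, with a median of all genes of 0.10 on the log2 scale. Without replicate number as a block 48 genes were higher and 87 lower.

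The higher and the lower regulated genes differed in their level. Of the 114 lower genes 77 had a mean log2 CPM above 1, against 6 of the 100 higher genes and 62.3% of all genes tested. The median level of the lower genes fell from 11.7 CPM in untreated to 3.46 CPM in afatinib libraries, and that of the higher genes went from 0.193 to 0.457 CPM. Of the lower genes 80.7% were protein coding and 14% were long intergenic or antisense RNAs, against 41.0% and 44.0% of the higher genes and 73.9% and 16.1% of all genes tested. The protein-coding lower genes had a median span of 13.9 kb and 5 exons in the transcript with the most exons, the higher ones 38.3 kb and 8 exons, and all protein-coding genes tested 35.9 kb and 10 exons. For most of the higher genes low counts per library carried the call. With at least 10 counts required in every library compared, 29 genes were higher and 94 were lower. The count of higher genes was 57 without untreated replicate 3 and 65 without afatinib replicate 3. For 1 lower gene, the pseudogene NFE2L3P1, both groups lay at or near the level of 3 counts, and no fold is given.

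**Figure D1:**
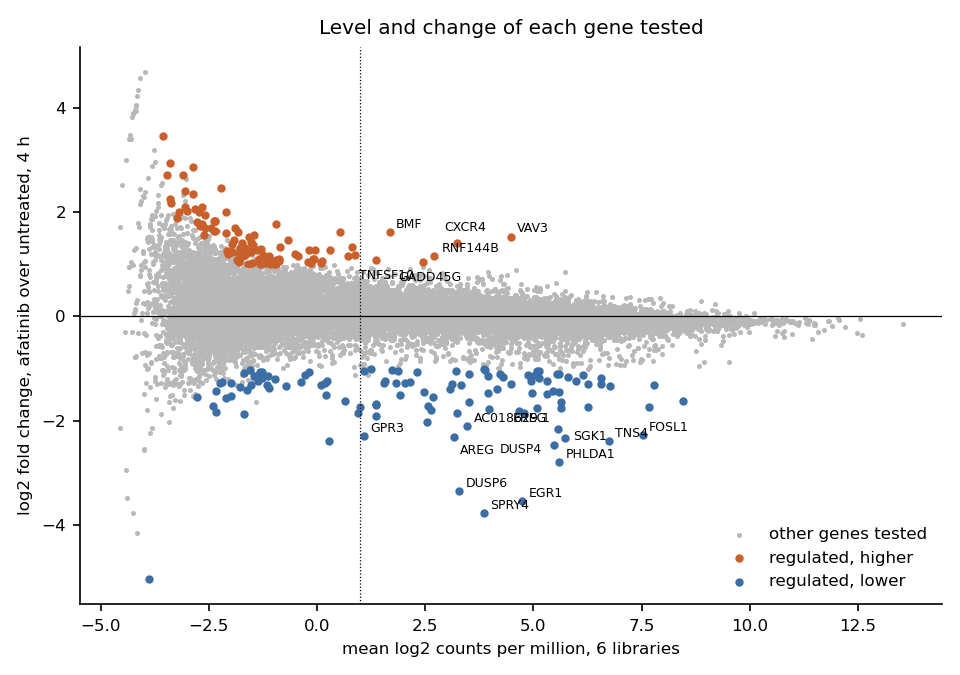
Each point is 1 of the 19815 genes tested, with the mean log2 CPM over the 6 libraries on the x axis and the log2FC of afatinib over untreated at 4 h on the y axis. Orange marks the 100 higher and blue the 114 lower regulated genes, and the dotted line stands at a mean log2 CPM of 1, to the right of which lie 6 higher and 77 lower genes.

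Of the 4 ERBB receptor genes, among which EGFR, ERBB2 and ERBB4 encode the targets of afatinib, 1 changed. EGFR was at 492, 407 and 443 CPM in the untreated libraries and at 389, 318 and 327 CPM in the afatinib libraries. All 3 afatinib libraries lay below all untreated ones, and the log2FC was -0.38 (SE 0.08, adjusted p = 0.00191, edgeR). ERBB2 was at 114, 157 and 131 CPM in untreated and at 126, 105 and 145 CPM in afatinib libraries, with overlapping groups and a log2FC of -0.09 (SE 0.14), whose sign turned under scaling by library size (0.01) and without untreated replicate 2 (0.01) or afatinib replicate 2 (0.09). ERBB3, which lacks strong kinase activity of its own, had a log2FC of 0.26 (SE 0.11, adjusted p = 0.124, edgeR). ERBB4 stayed at or below 1.13 CPM, and its log2FC of -0.08 (SE 0.32) turned to 0.11 without afatinib replicate 3. Per kilobase of exon, the untreated level was highest for EGFR (33.5 ± 3.23 CPM per kb, SD, n = 3), followed by ERBB2 (12.2 ± 1.95), ERBB3 (0.447 ± 0.0975) and ERBB4 (0.0598 ± 0.0194), and the ranges of neighbours in this order did not overlap.

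Of 11 EGFR ligands and neuregulins 4 fell and none rose, with a median log2FC of -0.24 over the list. Among all genes tested 7.63% fell and 5.59% rose. AREG, which encodes amphiregulin (ENSG00000109321, chromosome 4, 74445134 to 74455009, plus strand, GRCh38), was at 15.8, 16.1 and 30.4 CPM in untreated and at 3.50, 3.52 and 5.23 CPM in afatinib libraries. Replicate 3 was the highest in both groups, the groups did not overlap, and AREG fell by 2.31 on the log2 scale (SE 0.21, adjusted p = 1.22e-09). Its neighbour EREG, which encodes epiregulin (ENSG00000124882, chromosome 4, 74365143 to 74388751, plus strand), was at 100, 72.6 and 137 CPM in untreated and at 21.9, 18.7 and 28.4 CPM in afatinib libraries, a fall of 2.15 (SE 0.25). HBEGF, the heparin-binding ligand, was at 50.7, 53.7 and 42.1 CPM and at 25.4, 28.1 and 15 CPM. It fell by 1.13 (SE 0.22), and by 0.97 with replicate 3 of both groups left out. TGFA fell by 0.79 (SE 0.07) and stayed within the 2-fold limit. For EGF, BTC, EPGN and the neuregulins the test was not passed. Of 9 genes of receptor-level feedback, ERRFI1 (MIG6, an inhibitor that binds the EGFR kinase) fell by 1.48 (SE 0.19) and SOCS5 by 0.38, whereas LRIG1, LRIG2, LRIG3 and the CBL genes did not pass the test.

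**Figure D2:**
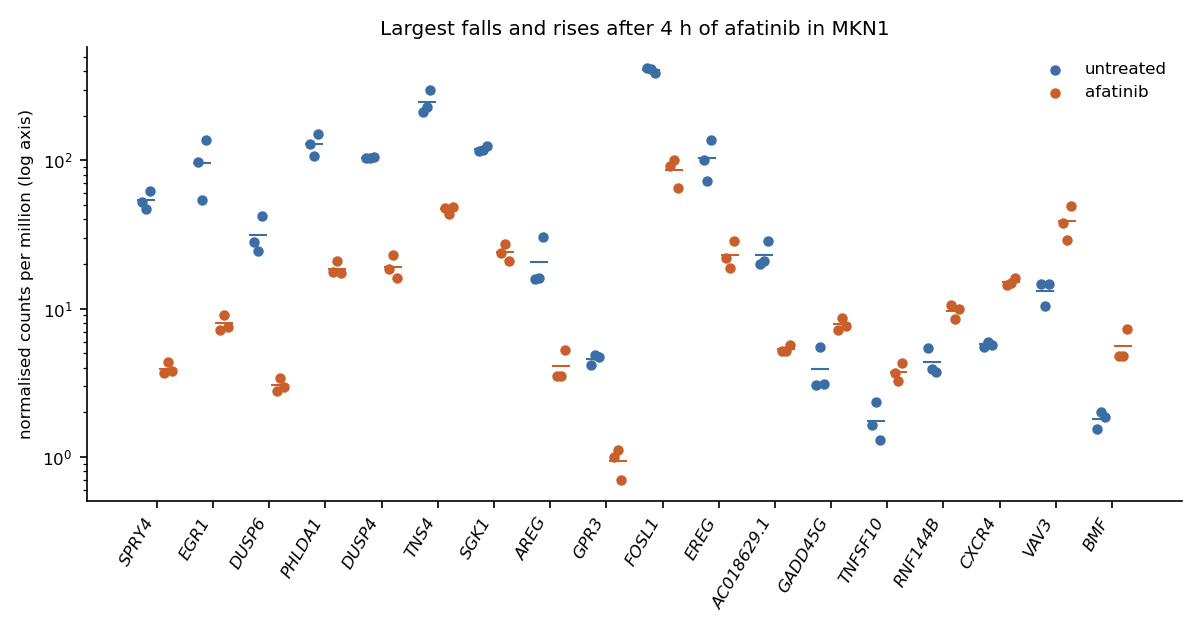
Normalised CPM on a log axis for the 12 genes that fell most and the 6 that rose most of those with a level above 1 on the log2 scale, with 3 points per group and a line at the mean. In each of the 18 genes all afatinib libraries lie on one side of all untreated libraries.

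Inhibitors of the ERK pathway were among the genes with the largest falls. SPRY4, a Sprouty protein that blocks signalling from receptor to RAS (ENSG00000187678, chromosome 5, 142310427 to 142326455, minus strand), was at 52.3, 46.7 and 62.0 CPM in the untreated and at 3.68, 4.4 and 3.77 CPM in the afatinib libraries, a 13.5-fold fall (log2FC -3.76, SE 0.31, adjusted p = 1.2e-10). DUSP6, the cytoplasmic phosphatase of ERK (ENSG00000139318, chromosome 12, 89347232 to 89353271, minus strand), was at 28.0, 24.3 and 42.5 CPM and at 2.81, 3.40 and 2.98 CPM, a 10.1-fold fall (log2FC -3.34, SE 0.31, adjusted p = 1.42e-09). In CPM the untreated libraries, at the higher level, spread more than the afatinib ones. The SDs were 7.78 and 0.395 for SPRY4 and 9.57 and 0.303 for DUSP6. DUSP4, a nuclear phosphatase of ERK, was at 104, 104 and 105 CPM and at 18.4, 23 and 16 CPM, a fall of 2.46 (SE 0.20).

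Of the 10 MAP kinase phosphatases tested 6 fell, 4 of them by more than 2-fold, and 2 rose, with a list median of -0.95 beside 0.01 over all genes. Falls made up 7.63% and rises 5.59% of all genes tested. DUSP1 was at 0 CPM in every library compared and was not tested. DUSP5 fell by 1.39 and DUSP10 by 1.30, and DUSP7 by 0.99 and DUSP2 by 0.90 within the 2-fold limit. The rises of DUSP16 (0.36) and DUSP8 (0.22) were small. Of 7 Sprouty and SPRED inhibitors 5 fell and all 5 were regulated, with a median of -1.10. Beside SPRY4 these were SPRY2 (-1.31), SPRY1 (-1.28), SPRED2 (-1.10) and SPRED1 (-1.04), whose log2FC came to -0.99 without untreated replicate 3. SPRY3 (0.20) and SPRED3 (0.04) did not pass the test. The components of the cascade behaved differently. Of 21 RAS-MAPK core genes, among them BRAF and MAP2K1, 19 did not pass the test. SOS1, the exchange factor of RAS, rose by 0.38 on the log2 scale, and the scaffold gene KSR1 fell by 0.29.

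Of the 6 EGR factors and NAB corepressors tested 3 fell and 3 did not pass the test, beside falls in 7.63% and rises in 5.59% of all genes. EGR1 (ENSG00000120738, chromosome 5, 138465490 to 138469315, plus strand) was at 97.5, 53.9 and 136 CPM in untreated and at 7.22, 9.13 and 7.58 CPM in afatinib libraries. The untreated libraries spread over more than a factor of 2, but the lowest of them was far above the highest afatinib library, and the fall was 11.7-fold (log2FC -3.54, SE 0.31, adjusted p = 4.18e-10). EGR3 went from 3.66 ± 1.0 to 1.08 ± 0.15 CPM (SD, n = 3) and EGR4 from 1.64 ± 0.42 to 0.660 ± 0.067 CPM. EGR3 did not pass the test with replicate 3 of both groups left out (adjusted p = 0.0647, edgeR). EGR2 (-1.63) and the corepressors NAB1 (-0.10) and NAB2 (-0.21) were the 3 that did not pass it. Of the 10 AP-1 and MAF factors tested 7 fell, 1 rose and 2 did not pass. FOSB and JUNB were at 0 CPM in every library compared and were not tested. FOSL1, the FRA-1 subunit of AP-1, was at 421, 413 and 388 CPM and at 91.3, 99.9 and 65.6 CPM, a fall of 2.27 (SE 0.25). FOS fell by 1.29, MAFF by 1.81, and JUN by 0.55, whereas JUND rose by 0.25.

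Of 20 other immediate early genes 13 fell and 2 rose, with a median of -0.63, beside falls in 7.63% and rises in 5.59% of all genes. PHLDA1, a pleckstrin homology protein, was at 129, 106 and 151 CPM and at 17.6, 20.9 and 17.3 CPM, a fall of 2.78 (SE 0.25). IER3 fell by 1.77, whereas ZFP36L2 (-0.93), ZFP36L1 (-0.86), TRIB1 (-0.85) and IER2 (-0.75) fell by less than 2-fold. MYC, which drives growth genes, was at 55.5, 54.9 and 46.1 CPM and at 15, 18.8 and 10.6 CPM, a fall of 1.84 (SE 0.16). In the list of MYC and its partners MXD3 rose by 0.79 and MLXIPL by 0.46, while MLX and MAX fell by 0.42 and 0.16. Of 13 ETS factors tested 4 fell, ETV5 by 1.23, ETS1 by 1.00, ETV1 by 0.80 and ELK3 by 0.57, and ELF1 and ELF3 rose by 0.44 and 0.35. Of 14 KLF factors 8 fell, the most KLF2 (-0.84) and KLF6 (-0.83), and KLF9 rose by 0.51.

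The sequences before the start sites of 6 lower genes are shown as examples, chosen for the motif letters they hold. They were read from RefSeq (GRCh38.p14) at chr5:138465229-138465478 (EGR1, plus strand), chr22:38201744-38201993 (MAFF, plus), chr1:16156070-16156319 (EPHA2, minus), chr4:74444886-74445135 (AREG, plus), chr4:73740319-73740568 (CXCL8, plus) and chr1:94541760-94542009 (F3, minus). They cover the 250 bases before the annotated start on the gene's strand, and carry the matches in capitals. The searched letters were TGAGTCA for the AP-1 site, TGACGTCA for the cAMP response element and TATAAA for the TATA box, and the CArG box of the serum response element by its consensus, on both strands, with no overlap between the matches shown. Further motifs searched were CCGGAAG (ETS), TGTTTAC (FOXO), GCGTGGGCG (EGR), GGGCGG (GC box), CACGTG (E-box) and the NF-kB site by its consensus, and these are not marked. The capitals mark 2 CArG boxes in EGR1, 1 cAMP response element each in MAFF, EPHA2 and AREG, 1 AP-1 site each in CXCL8 and F3, and 1 TATA box each in AREG, CXCL8 and F3.
EGR1: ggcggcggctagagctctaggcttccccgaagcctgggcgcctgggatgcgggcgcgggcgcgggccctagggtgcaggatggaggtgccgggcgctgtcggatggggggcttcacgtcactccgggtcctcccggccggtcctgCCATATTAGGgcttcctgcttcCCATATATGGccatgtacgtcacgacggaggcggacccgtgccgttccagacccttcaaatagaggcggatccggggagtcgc
MAFF: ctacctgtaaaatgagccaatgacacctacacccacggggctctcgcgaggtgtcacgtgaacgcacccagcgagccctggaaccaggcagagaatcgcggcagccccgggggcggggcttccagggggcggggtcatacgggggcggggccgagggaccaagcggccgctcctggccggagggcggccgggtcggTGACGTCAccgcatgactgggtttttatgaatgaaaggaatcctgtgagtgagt
EPHA2: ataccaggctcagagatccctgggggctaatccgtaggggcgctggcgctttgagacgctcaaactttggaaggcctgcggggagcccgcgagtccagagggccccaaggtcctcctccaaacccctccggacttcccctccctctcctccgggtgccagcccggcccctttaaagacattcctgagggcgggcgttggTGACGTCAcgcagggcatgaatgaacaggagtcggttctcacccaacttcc
AREG: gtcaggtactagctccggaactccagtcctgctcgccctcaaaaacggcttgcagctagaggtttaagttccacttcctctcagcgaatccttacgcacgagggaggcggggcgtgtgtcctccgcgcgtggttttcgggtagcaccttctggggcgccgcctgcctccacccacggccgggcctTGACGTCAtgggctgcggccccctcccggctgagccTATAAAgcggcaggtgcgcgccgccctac
CXCL8: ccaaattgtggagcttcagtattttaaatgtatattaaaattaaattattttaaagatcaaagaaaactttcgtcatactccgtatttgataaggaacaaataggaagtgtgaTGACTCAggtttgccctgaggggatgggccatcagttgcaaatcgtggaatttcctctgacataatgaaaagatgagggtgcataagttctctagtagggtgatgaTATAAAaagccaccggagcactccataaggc
F3: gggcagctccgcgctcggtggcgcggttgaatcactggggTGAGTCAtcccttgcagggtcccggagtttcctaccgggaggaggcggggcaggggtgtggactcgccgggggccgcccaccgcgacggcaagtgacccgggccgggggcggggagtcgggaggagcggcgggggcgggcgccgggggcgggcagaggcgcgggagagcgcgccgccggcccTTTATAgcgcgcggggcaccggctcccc

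The AP-1 match of CXCL8 reads on the opposite strand and lies 137 to 131 bases before the start, and that of F3 is 210 to 204 bases before it. The cAMP response elements lie 51 to 44 bases before the start in EPHA2, 54 to 47 in MAFF and 65 to 58 in AREG. The TATA letters lie 31 to 26 bases before the start in CXCL8, 29 to 24 in AREG and, on the opposite strand, 28 to 23 in F3. Over the 12179 tested genes with a promoter in the table, 3.05% held the AP-1 letters, 2.55% the cAMP response element, 1.02% a CArG box and 6.34% the TATA letters in the same window. These shares can be set beside those of the regulated genes only in part, because promoters were matched for 113 of the 214. Among the 74 lower genes matched the shares were 9.46% (AP-1), 5.41% (cAMP response element), 1.35% (CArG box) and 21.6% (TATA). Among the 39 higher genes they were 10.3%, 0%, 2.56% and 12.8%. The ETS letters were in 8.11% and the EGR letters in 0% of the lower genes, beside 13.6% and 1.11% of all. Whether these elements had a part in the changes was not tested. A match is a run of letters and not a measured binding site.

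Other genes with large falls were TNS4, SGK1, GPR3 and EPHA2. TNS4, a tensin at focal adhesions, was at 212, 229 and 299 CPM and at 47.5, 43.7 and 48.7 CPM, a fall of 2.39 (SE 0.23). AC018629.1, annotated directly downstream of TNS4 on the same strand, fell by 2.09, and reads from the end of TNS4 and from this gene may not be told apart. SGK1, a serum- and glucocorticoid-induced kinase, was at 116, 118 and 124 CPM and at 23.6, 27.4 and 20.8 CPM, a fall of 2.33 (SE 0.18). GPR3, a receptor that raises cAMP, went from 4.58 ± 0.35 to 0.941 ± 0.21 CPM. The receptor tyrosine kinase EPHA2 was at 610, 604 and 636 CPM and at 206, 219 and 182 CPM, a fall of 1.61 (SE 0.13), and was the 1 regulated gene among 20 other receptor tyrosine kinases, of which MST1R, MET, EPHA4 and FGFR1 also fell. Of 17 cholesterol and fatty acid synthesis genes tested 4 fell and none rose, and SREBF2 (0.05) and SCD (-0.06) did not pass the test. Among all genes tested 7.63% fell and 5.59% rose.

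Of 12 genes tested of a list of chemokines and CXCR4, 3 fell, 2 rose and 7 did not pass the test. For this and the following lists, 7.63% of all genes tested fell and 5.59% rose. The 3 that fell, CXCL8, CXCL1 and CCL2, did so by more than 2-fold, and those that rose were CXCR4 (1.40) and CCL28 (0.44). CXCL8, which encodes interleukin-8, was at 12.3, 12.1 and 10.9 CPM and at 2.67, 4.28 and 2.01 CPM, a fall of 2.02 (SE 0.15, adjusted p = 3.69e-11). CXCL1 was at 5.35, 6.10 and 3.75 CPM and at 1.19, 1.98 and 0.934 CPM, a fall of 1.91 (SE 0.22), and it shares sequence with CXCL2 and CXCL3, between which reads may be split. Of 21 interleukins, LIF and receptors tested, 10 fell, 1 rose and 10 did not pass. LIF was at 18.3, 20.9 and 20.7 CPM in untreated libraries and fell to 6.43 ± 0.99 CPM, IL11 from 25.5 ± 1.5 to 9.44 ± 2.5 CPM and CSF2 (GM-CSF) from 2.73 ± 0.60 to 0.523 ± 0.21 CPM. IL1B was at or below 0.659 CPM in all 6 libraries, with a log2FC of -1.41 (adjusted p = 0.0149, edgeR) that did not pass without the replicate block (adjusted p = 0.0727), nor without untreated replicate 1 (0.0925) or afatinib replicate 1 (0.112). Of 16 NF-kB subunits and feedback genes 6 fell, BIRC3, an inhibitor of cell death, by 1.11 (SE 0.07) and TNFAIP3 by 0.48. Of 15 Toll-like receptors and adaptors tested 4 fell, 3 rose and 8 did not pass the test. TLR4 fell by 1.03 (0.92 without untreated replicate 3 and 0.99 without afatinib replicate 2), while the adaptor gene MYD88 fell by 0.17, TICAM1 by 0.32 and the kinase gene IRAK2 by 0.44. TLR3 and TLR5 rose by 0.93 and 0.60 from levels under 1 CPM, and IRAK4 rose by 0.26. Of 20 interferon-stimulated genes 13 could be tested, and none of these passed the test in edgeR. IFIT1, IFIT2, IFIT3, IFITM1, OAS2, OAS3 and IRF9 were at 0 CPM in all 6 libraries and were not tested.

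Genes of coagulation, matrix and motility are of interest because the study followed the movement of these cells, and it chose 14 motility candidates with the use of these samples. That list is therefore no independent evidence of its direction. Of the 14 candidates 13 fell, 11 of them by more than 2-fold, and 1 rose, with a median of -1.21. F3, tissue factor, was at 391, 392 and 330 CPM and at 123, 139 and 81.3 CPM, a fall of 1.73 (SE 0.14). ETS1 went from 109 ± 9.2 to 55.0 ± 10 CPM, at the 2-fold limit itself. F2RL1, a protease-activated receptor, fell by 1.11 (0.99 with replicate 3 of both groups left out), PTGS2 (cyclooxygenase-2) by 1.27, CYR61 (CCN1) by 1.31 and the phosphatase gene PLPP3 by 1.03, which came to 0.98 without untreated replicate 2 and 0.99 without afatinib replicate 2.

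ITGA2, an integrin subunit for collagen, was at 64.9, 67.4 and 129 CPM and at 32.3, 27.8 and 56.5 CPM. Replicate 3 was well above the others in both groups, so that the highest afatinib library lay below the lowest untreated one by little, and the log2FC of -1.16 (adjusted p = 1.04e-06) passed with the block but not without it (adjusted p = 0.0587, edgeR). HAS2, a hyaluronan synthase, was at 0.697, 0.350 and 0.999 CPM and at 0.297, 0.234 and 0.270 CPM. Its adjusted p of 0.0220 came to 0.0602 without the block (edgeR), to 0.239 without untreated replicate 3, and to 0.0977, 0.0554 and 0.0582 without afatinib replicate 1, 2 or 3. SEMA6D, the 1 candidate that rose, was at 0.833, 0.775 and 0.675 CPM and at 2.14, 1.91 and 1.53 CPM (log2FC 1.28, SE 0.25).

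The wider lists around these candidates moved in part, beside falls in 7.63% and rises in 5.59% of all genes tested. Of 11 genes of tissue factor, plasminogen and protease receptors tested 8 fell and none rose, with a median of -0.81, among them THBD (-0.95), PLAUR (-0.81), PLAT (-0.54) and SERPINB2 (-1.38 at under 1 CPM). Of 11 genes listed for the co-activator YAP, its targets and its TEAD partners, 5 fell, CTGF (CCN2) from 89.8 ± 21 to 29.2 ± 8.6 CPM, ANKRD1 by 1.72 and CYR61 as above, while AMOTL1, LATS2, TEAD1 and 3 others did not pass the test. Of 12 prostaglandin genes the receptor gene PTGER4 fell by 1.07, beside PTGS2. Of 16 integrin subunits 4 fell and of 9 hyaluronan genes 3 fell and HMMR rose. None of 11 matrix metalloproteinases and TIMPs tested passed the test in edgeR. Of 14 Notch genes HES1 (-1.17) and JAG1 (-1.10) were regulated, with JAG1 at -0.9991 without untreated replicate 3 and at -0.9883 without replicate 3 of both groups, both within the 2-fold limit, and DLL1 and MFNG fell by less.

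**Figure D3:**
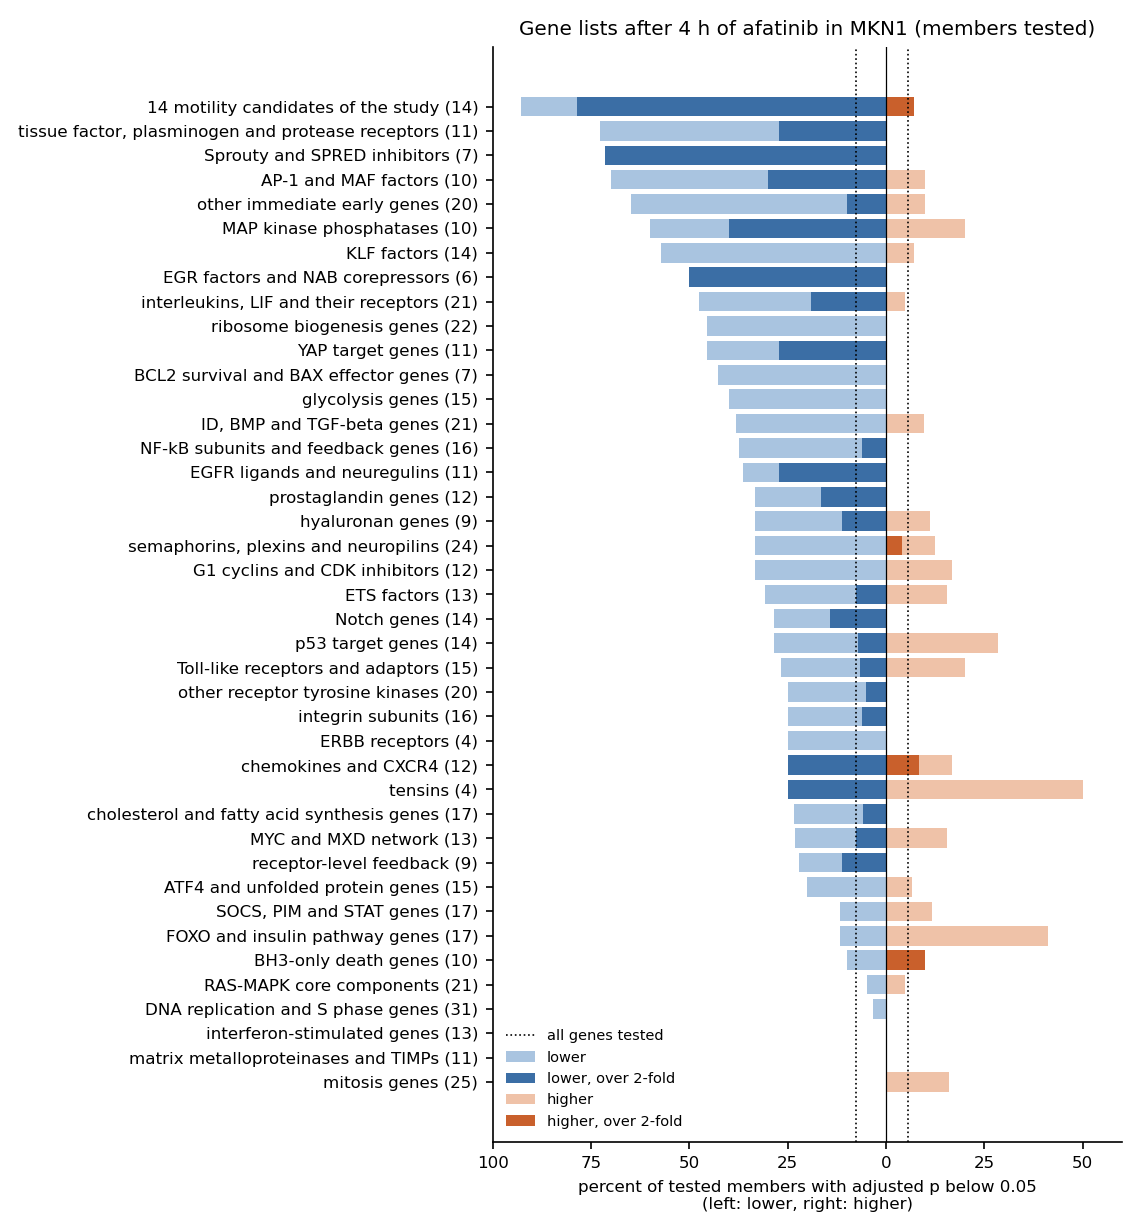
For each gene list shown, bars give the percent of the members tested (number in brackets) that were lower (left) or higher (right) with an adjusted p below 0.05, with darker colour for those over 2-fold. The dotted lines mark the shares of all genes tested, 7.63% lower and 5.59% higher.

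Of the genes that rose by more than 2-fold, the 6 with a mean log2 CPM above 1 were BMF, VAV3, CXCR4, RNF144B, TNFSF10 and GADD45G. BMF, which encodes a BH3-only promoter of cell death (ENSG00000104081, chromosome 15, 40087890 to 40108892, minus strand), was at 1.55, 2.02 and 1.86 CPM in untreated and at 4.77, 4.82 and 7.30 CPM in afatinib libraries, a 3.08-fold rise (log2FC 1.62, SE 0.31, adjusted p = 0.000369). VAV3, a guanine nucleotide exchange factor (ENSG00000134215, chromosome 1, 107571160 to 107965144, minus strand), was at 14.6, 10.5 and 14.6 CPM and at 37.9, 28.9 and 49.4 CPM, a 2.89-fold rise (log2FC 1.53, SE 0.12). CXCR4, the receptor of the chemokine CXCL12, was at 5.54, 5.97 and 5.72 CPM and at 14.6, 14.8 and 16.2 CPM, a 2.64-fold rise, with little spread in either group. The ubiquitin ligase gene RNF144B rose by 1.15 (SE 0.17).

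TNFSF10, which encodes the death ligand TRAIL, was at 1.65, 2.35 and 1.29 CPM and at 3.66, 3.25 and 4.29 CPM. Its adjusted p of 0.0246 (edgeR) came to 0.103 without untreated replicate 1, 0.140 without untreated replicate 3, 0.0525 without afatinib replicate 1 and 0.122 without afatinib replicate 3. GADD45G was at 3.08, 5.55 and 3.13 CPM and at 7.18, 8.72 and 7.69 CPM, and its log2FC of 1.04 came to 0.97, 0.98 and 0.96 without untreated replicate 1, untreated replicate 3 or afatinib replicate 3. With replicate 1 or replicate 3 of both groups left out, GADD45G did not pass the test (adjusted p = 0.0649 and 0.0828, edgeR).

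Survival, cell cycle and metabolic lists held few regulated genes. Of 10 BH3-only genes BMF rose and PMAIP1 (NOXA) fell by 0.81, and the other 8, BCL2L11 (BIM) among them with a log2FC of -0.02, did not pass the test. Of the 7 BCL2 survival and effector genes tested MCL1 fell from 660 ± 29 to 362 ± 9.6 CPM, BCL2L1 by 0.61 and BCL2 by 0.60. Of 17 genes of the FOXO and insulin pathways 7 rose, TXNIP (0.86), KLHL24 (0.70), FOXO6 (0.66), PDK4 (0.62), PIK3R3 (0.60), FOXO4 (0.41) and SESN1 (0.26), and the insulin receptor substrates IRS1 (-0.86) and IRS2 (-0.23) fell. Of 12 G1 cyclins and inhibitors tested 4 fell and 2 rose. CCND1, cyclin D1, fell by 0.87 (SE 0.16) to 547 ± 110 CPM, and CDKN1C rose by 0.53. Of 31 DNA replication genes 1 fell, RRM2 by 0.31, and of 25 mitosis genes 4 rose by 0.18 to 0.39, namely CDC25C, KIF20A, HMMR and NUSAP1. Of 22 ribosome biogenesis genes tested 10 fell, by at most 0.45 (LYAR), with a list median of -0.18. Of 15 glycolysis genes tested 6 fell, the most HK2 (-0.73). Falls and rises numbered 4 and 4 among 14 p53 targets tested, and 8 and 2 among 21 ID, BMP and TGF-beta genes. They numbered 8 and 3 among 24 semaphorins, plexins and neuropilins, and 3 and 1 among 15 ATF4 and unfolded protein genes. The 17 SOCS, PIM and STAT genes held 2 and 2, and the 4 tensins 1 and 2. Over all genes tested 7.63% fell and 5.59% rose.

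Trastuzumab with afatinib against trastuzumab at 4 h offers the same addition of afatinib in 6 libraries that share none with the first comparison, in a background of the ERBB2 antibody. In that comparison 4.3% of all genes tested rose and 6.6% fell (edgeR, adjusted p below 0.05). Of the 114 genes lower with afatinib alone 95 fell and none rose, with a median log2FC of -1.33 beside -1.32. Of the 100 higher genes 21 rose and none fell, with a median of 0.65 beside 1.32. SPRY4 fell by 3.99 (SE 0.31), DUSP6 by 3.79 (SE 0.32), EGR1 by 3.71 (SE 0.31) and AREG by 2.40 (SE 0.22). VAV3 (1.35), CXCR4 (1.43), BMF (1.43), GADD45G (1.13) and RNF144B (0.98) rose, whereas TNFSF10 (0.97, SE 0.33) just missed the threshold. SERPINB2 and HAS2 fell by 1.04 and 1.33, and IL1B (-0.67, SE 0.40) did not pass.

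Afatinib and cetuximab, the antibody against EGFR, were compared directly at 4 h. No gene passed an adjusted p of 0.05 (0% of 19815, edgeR), with 634 genes at an unadjusted p below 0.05 and a smallest adjusted p of 0.272, while DESeq2 called 3 genes, IVNS1ABP, TGFBR2 and PDGFB, with log2 differences of -0.30, -0.18 and -0.37. A p that misses the threshold does not show equal effects. The difference of afatinib minus cetuximab was -0.99 for SPRY4 (95% interval -1.66 to -0.31), -0.91 for DUSP6 (-1.62 to -0.20), -0.67 for DUSP4 (-1.07 to -0.28), -0.63 for SGK1 (-0.98 to -0.27) and 0.16 for VAV3 (-0.06 to 0.38). These and the other regulated genes were chosen with the same afatinib libraries, which favours a larger effect of afatinib than of cetuximab among them. The intervals are not adjusted for the number of genes, and none of these differences passed the adjusted test. Over the 114 lower genes the interval lay within 2-fold in either direction for 83, and over the 100 higher genes for 45. The doses are of different kinds, and both comparisons with untreated cells share the untreated libraries. Side by side, SPRY4 fell by 3.76 with afatinib and by 2.77 with cetuximab, EGR1 by 3.54 and 2.93, and AREG by 2.31 and 1.91, while VAV3 rose by 1.53 and 1.37 and CXCR4 by 1.40 and 1.20.

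EGF against untreated at 4 h uses the same untreated libraries, so its values stand beside those of afatinib as a description. SPRY4 rose by 1.62 with EGF, DUSP6 by 1.85, PHLDA1 by 1.5, AREG by 2.28, CXCL8 by 1.94 and ITGA2 by 1.95. VAV3 fell by 1.47 and CXCR4 by 1.5. Of the 114 genes lower with afatinib 89 rose and none fell with EGF, with a median log2FC of 1.12. Most of the 100 genes higher with afatinib did not pass the test with EGF. Among them 4 fell and 2 rose, with a median of 0.14. Of all genes tested 9.82% rose and 7.18% fell with EGF. FOS (-0.00), ETV5 (-0.06), SPRY1 (0.01) and GPR3 (0.22) did not pass the test with EGF, and for EGR1 the log2FC was 0.63 (SE 0.26).

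At 24 h, afatinib against untreated in other libraries changed more genes, 20.2% of all higher and 22% lower. Of the 214 genes regulated at 4 h 90 were regulated at 24 h, all 90 in the same direction, which is 42.1% of those at 4 h and 9.62% of the 936 at 24 h. Of the 114 lower genes 81 were lower and 3 higher at 24 h by the adjusted p alone, and of the 100 higher genes 47 were higher and none lower. The difference 24 h minus 4 h was tested in the same fit, where 7.21% of all genes differed upwards and 8.46% downwards. The genes regulated at 4 h were chosen with libraries that enter this difference, so a smaller effect at 24 h is favoured among them. Of the 114 lower genes 25 had a weaker fall or a turn at 24 h and 9 a deeper fall.

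The EGR factors were among the genes with a deeper fall at 24 h, EGR1 with a log2FC of -4.75 against -3.54, EGR3 with -3.81 against -1.74 and EGR4 with -2.85 against -1.30, each with a difference past the test (adjusted p = 0.0499, 0.0118 and 0.00796, edgeR). ETV5 fell by 2.66 at 24 h against 1.23. SPRY4 (-4.37), DUSP6 (-4.20) and DUSP4 (-2.94) had fallen at 24 h too, and their differences between the times did not pass the test. F2RL1 had a log2FC at 24 h of -0.15 (SE 0.10), TLR4 of 0.00 (SE 0.10) and ETS1 of 0.18 (SE 0.09), and in these 3 genes the difference passed the test. NAV3, BIRC3 and CCL2 turned from a fall at 4 h to a rise at 24 h, NAV3 from -1.39 to 0.48, BIRC3 from -1.11 to 0.46 and CCL2 from -1.26 to 0.56. Of the rising genes, BMF (2.01), TNFSF10 (1.59), RNF144B (1.24), VAV3 (1.11) and GADD45G (0.97) were higher at 24 h as well, and CXCR4 was higher by 0.80, with a difference between the times of -0.60 (SE 0.17) that passed the test.

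**Figure D4:**
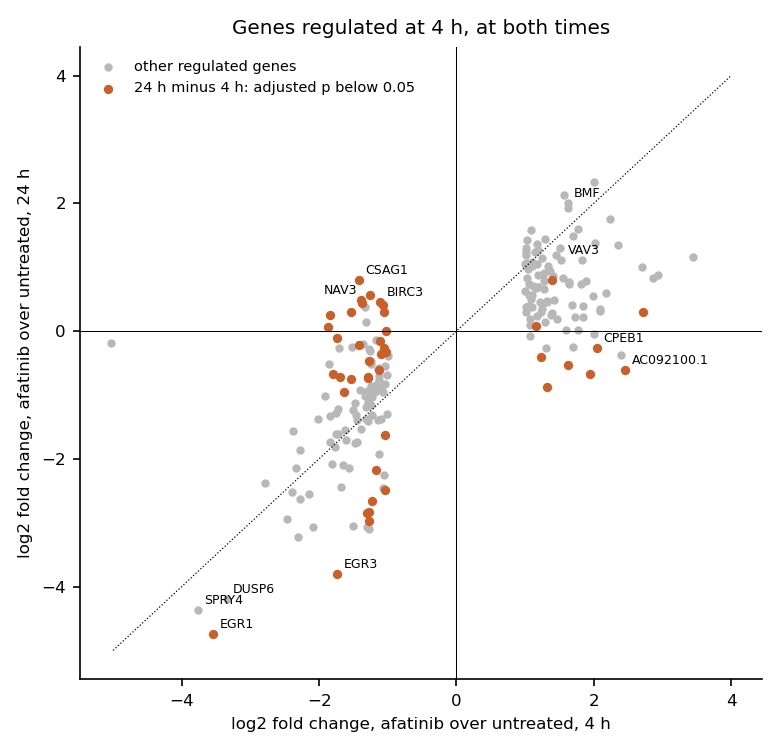
Each point is 1 of the 214 genes regulated at 4 h, with the log2FC at 4 h on the x axis and at 24 h on the y axis, and the dotted line marks equal values. Orange points passed the test of the difference between the times, among them EGR1 and EGR3 below the line on the left and NAV3 and BIRC3 above 0.

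In a fit of 24 libraries, untreated and afatinib at 4 h of 4 gastric cancer lines, the genes regulated in MKN1 were followed in the lines MKN7, NCI-N87 and Hs746T. Line and culture cannot be told apart here. Of the 112 lower genes that could be tested, 78 fell and 3 rose in MKN7, 71 fell and 5 rose with NCI-N87, and 7 fell and 0 rose for Hs746T, beside falls in 15.8%, 16.2% and 8.33% of all genes. Of 97 higher genes 23, 36 and 0 rose and 0, 0 and 1 fell, beside rises in 16.6%, 17.4% and 6.81% of all genes. EGFR transcripts in untreated cells stood at 437 ± 40 CPM for MKN1, 617 ± 80 for MKN7, 177 ± 43 for NCI-N87 and 264 ± 13 for Hs746T (SD, n = 3), and ERBB2 at 131 ± 22, 3723 ± 180, 11120 ± 567 and 81.6 ± 4.7 CPM. In Hs746T afatinib left a log2FC of -0.13 (SE 0.09) for SPRY4, 0.29 (SE 0.14) for DUSP6, 0.01 (SE 0.39) for EGR1 and -0.15 (SE 0.10) for PHLDA1, none past the test.

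The effect of afatinib in each line minus that in MKN1 differed upwards in 5.82% and downwards in 5.96% of all genes for MKN7, in 6.02% and 5.78% for NCI-N87 and in 9.56% and 8.21% for Hs746T. SGK1 and DUSP10 set MKN1 apart from both other lines that lost SPRY4. SGK1 fell by 2.33 in MKN1 but by 0.26 in MKN7 and 0.74 in NCI-N87, and DUSP10 fell in MKN1 while it rose by 0.56 and 0.86. PTHLH, parathyroid hormone-like hormone, fell from 91.7 CPM in MKN1, and its log2FC was 0.15 (SE 0.16) in MKN7 and 0.28 (SE 0.24) in NCI-N87, where it lay below 2 CPM. AMIGO2 and ARL14 rose in MKN7 by 0.17 and 0.53. For PLK3 and CXCL8 the fall was deeper elsewhere, PLK3 with -2.94 in MKN7 and CXCL8 with -3.96 in NCI-N87. VAV3, which rose in MKN1, had a log2FC of -0.26 (SE 0.31) in MKN7 and 0.42 (SE 0.46) in NCI-N87, neither past the test. BMF rose in MKN7 by 1.12 and in NCI-N87 by 3.61. ERBB3 rose in MKN7 by 0.93 and in NCI-N87 by 1.51, beside 0.26 in MKN1, where it did not pass.

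**Figure D5:**
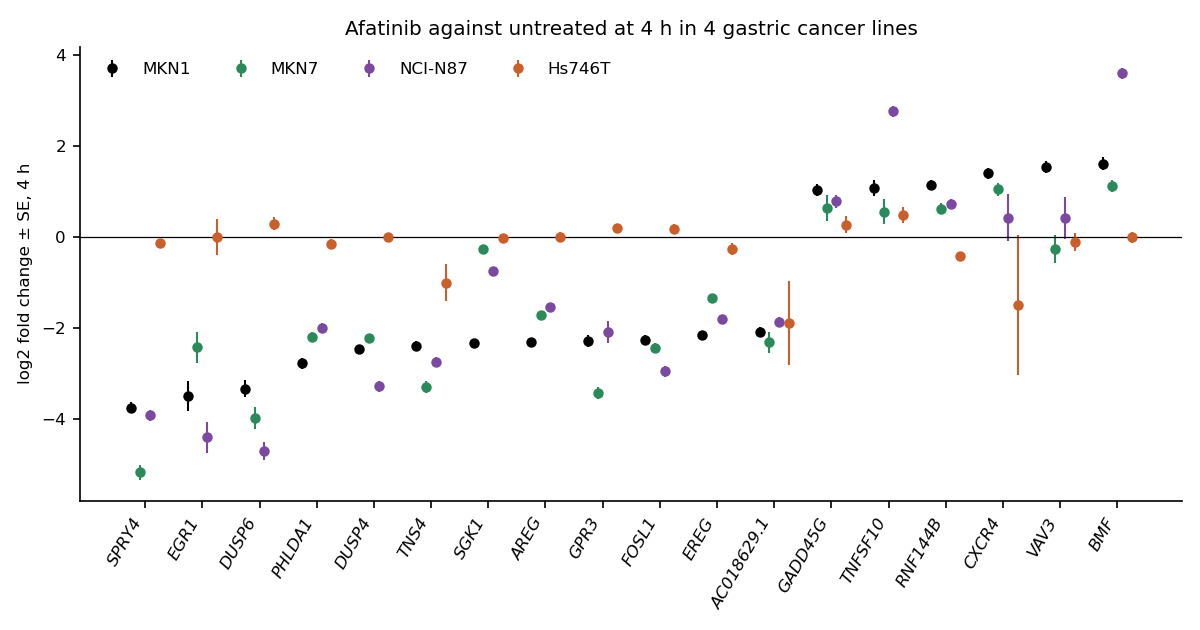
Log2FC of afatinib over untreated at 4 h with its SE in 4 lines, 3 libraries per group, for the 12 largest falls and 6 largest rises in MKN1. In Hs746T the values for SPRY4, EGR1, DUSP6 and PHLDA1 lie between -0.15 and 0.29, whereas they lie below -1.9 in the other lines.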

How the data were processed

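The authors sequenced directional poly(A) libraries paired end, with Trim Galore, STAR and build hg38 named in the submitters' processing notes, and deposited whole read counts per Ensembl gene for each library. The counting tool, its strand setting and versions are not given in the sources used here, so overlapping and antisense genes may share reads. Names and positions came from GENCODE release 29 (GRCh38), which lacks 8404 of 65217 identifiers with 0.0374% of the MKN1 counts. The 37 mitochondrial identifiers held 0 counts.

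The quasi-likelihood test of edgeR 4.0.16 (R 4.3.3) was fitted to all 42 MKN1 libraries after TMM scaling and the filterByExpr filter (min.count 10, min.total.count 15), with 1 mean per treatment and time and the replicate number within each time as a block. The lines were compared in a fit of 24 libraries with the same block. Unless a sentence names another tool, every adjusted p comes from edgeR. CPM in the text were TMM-normalised, except those by library size and per kilobase. Log2 CPM used a prior count of 2, and SE is the log2FC divided by the root of F. The replicate numbers come from the labels, and the deviations of same-numbered untreated and afatinib libraries from their group means correlated with r = 0.248, 0.350 and 0.321 (0.248 to 0.429 over all 63 such pairs of MKN1 at 4 h), so that the numbers were taken to pair the samples. Intervals of 95% cover the fit's error only.

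For regulated genes the limits were those of the study, 0.05 for the adjusted p and 1 for the size of the log2FC. The genes named are the 12 largest rises (6 qualified) and 12 largest falls with a mean log2 CPM above 1 and the same direction in all pairs, the ERBB receptors, regulated members of the 42 gene lists, the 14 motility candidates, and the 5 largest differences each way between times or lines. Other genes were named after their values were seen. Members and lists were chosen with earlier results of these data known. In simulated counts with 200 changed genes (19676 genes tested, this comparison), 100% of those with a log2FC of 1.5 and 89% of those with 0.5 were called changed. DESeq2 1.42.0 was an alternative, as were the settings in the closing section. Figures used Python 3.11.15. Other libraries of the series were not analysed here. Some genes and 1 gene list are not reported here.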

Additional observations from a re-analysis of the deposited data

Results flagged for a closer look

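The differences below are log2 differences between the effect of afatinib at another time or in another line and that in MKN1 at 4 h, each past an adjusted p of 0.05 in a test of the difference itself (edgeR). They are the largest in each direction among the genes regulated in MKN1 at 4 h, whose choice used libraries that enter the difference. Several of these 4 h calls did not pass without the replicate block (adjusted p, edgeR). These were CSAG1 (0.268), LINC00659 (0.0965), FRMPD2 (0.0883), CPEB1 (0.108), CCDC177 (0.0985), ARL14 (0.3) and FPR3 (0.0614). Others were AC092164.1 (0.0751), AC097478.1 (0.168), AL160290.2 (0.126), KRTAP1-5 (0.104) and AC015853.2 (0.0954). SV2B did not pass without untreated replicate 2 (0.103) or 3 (0.102), nor without afatinib replicate 1 (0.117) or 3 (0.0662). With replicate 1 of both groups left out, TNR (0.169), LINC02535 (0.0732) and AQP7 (0.0649) did not pass. LINC01899 did not pass with replicate 2 (0.052) or replicate 3 (0.0674) of both groups left out.

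For 24 h minus 4 h, NAV3 differed by 1.87 (adjusted p = 1.07e-08) at a level of 13.9 CPM in untreated cells. The other upward differences were in genes under 1 CPM, CSAG1 (2.22), LINC02535 (2.09), TNR (1.94) and LINC00659 (1.84), with adjusted p from 0.00881 to 0.0397 (edgeR). The downward ones were all under 1 CPM, AC092100.1 (-3.07), FRMPD2 (-2.61), LINC01899 (-2.42), CPEB1 (-2.32) and CCDC177 (-2.20), with adjusted p from 0.00014 to 0.0499 (edgeR).

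For MKN7 minus MKN1, the fall in MKN1 was absent or smaller in MKN7 for SGK1 (2.06), PTHLH (1.90), DUSP10 (1.86), ARL14 (1.78) and AMIGO2 (1.60). PLK3 fell more deeply in MKN7 (-1.90). Genes that had risen in MKN1 from low levels differed downwards, SEMA6D (-3.32), AQP7 (-2.25), AC092164.1 (-1.94) and FPR3 (-1.83).

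For NCI-N87 minus MKN1, AC010735.2 (2.18), DUSP10 (2.16), PTHLH (2.03) and RGS4 (1.99) differed upwards and CXCL8 (-1.96) downwards. The value for KRTAP1-5 (5.52) rests on untreated NCI-N87 libraries at 0 counts and is no bound. SEMA6D (-1.91), AC092100.1 (-3.02), AL160290.2 (-3.10) and AC097478.1 (-3.35) were at or under 2 CPM.

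For Hs746T minus MKN1, the falls of DUSP6 (3.63), SPRY4 (3.62), EGR1 (3.50), CSF2 (2.78) and PHLDA1 (2.63) had no counterpart in Hs746T. The downward differences were in genes at or under 2 CPM in MKN1, SV2B (-5.30), AC092100.1 (-4.52), AC083841.2 (-3.83), AL160290.2 (-3.25) and AC015853.2 (-3.01).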

How the results depend on the processing

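The 114 lower regulated genes ranged from 83 to 117 over the fits that left out libraries, and the 100 higher ones from 31 to 90. The count of higher genes moved by more than 1.5 times without replicate 2 (50) or 3 (31), untreated replicate 3 (57) or afatinib replicate 3 (65), without the replicate block (48), under library size scaling (170), with at least 10 counts in every library (29) and with DESeq2 (65). By the adjusted p alone the counts were 1107 and 1511. Only the 6 compared libraries gave 107 higher and 118 lower genes, the 21 libraries of 4 h 131 and 126, and no filter 97 and 111. Of the 214 genes 134 were also called without the block and 158 by DESeq2. For trastuzumab with afatinib against trastuzumab the 53 higher genes came to 27 without the block and 101 under library size scaling. Without the block, the genes past both limits for 24 h minus 4 h came from 209 to 81 upwards and from 102 to 33 downwards, for MKN7 minus MKN1 from 153 to 48 and from 129 to 48, for NCI-N87 from 180 to 82 and from 115 to 38, and for Hs746T from 128 to 41 and from 249 to 10. The sign of ERBB2 turned under library size scaling (0.007389), without replicate 2 (0.1307), untreated replicate 2 (0.008146) and afatinib replicate 2 (0.09044), and that of ERBB4 under library size scaling (0.01234), without replicate 3 (0.04318) and afatinib replicate 3 (0.1138). Over all fits without libraries the log2FC was -0.2182 to 0.1307 for ERBB2 and -0.2612 to 0.1138 for ERBB4. The cause of these shifts was not tested.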
